A study of Mus musculus with 8 samples.

Results

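Heat-shock high CD4 T cells are colonic T cells with many transcripts of Hspa1a and Hspa1b, the pair of genes for the stress-inducible chaperone HSP70. They were taken from the 27420 barcodes of a cell list deposited with 8 droplet single-cell RNA libraries of the mouse colonic lamina propria. A cell was kept as a T cell with at least 2 UMIs (unique molecular identifiers, counted transcripts) summed over Cd3e, Cd3d, Cd3g, Trac and Trbc2, and with at most 1 UMI each of Cd79a, Col3a1 and C1qa. Of the 19833 T cells that passed, 1494 held at least 5 UMIs of Hspa1a plus Hspa1b. The other 18339 T cells of the same libraries served as the comparison. The cells were chosen by their UMIs of Hspa1a and Hspa1b and of the gating genes, so these levels are described below without a test.

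The study crossed a genotype with colitis in C57BL/6 mice of 10 to 12 weeks. Wildtype mice were compared with mice carrying a serine-to-alanine knock-in in RORgt, a transcription factor of Th17 cells, called S203A in the sample titles and S182A in the series text. Mice were untreated or drank 2% dextran sulfate sodium (DSS), a polymer toxic to the colonic lining, for 7 days followed by water for 3 days, and all colons were taken on day 10, with CD4 cells then enriched by a magnetic kit. Each of the 4 groups (untreated wildtype, untreated S203A, DSS-treated wildtype and DSS-treated S203A) had 2 libraries, described as independent biological replicates. Gene counts cannot show the substitution and so do not check the genotype labels.

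Heat-shock proteins are chaperones that bind unfolded or newly made proteins. Under heat, proteotoxic stress or tissue handling, the transcription factor HSF1 binds heat-shock elements, inverted repeats of the unit GAA, and induces HSP70, its HSP40 partners, the nucleotide exchange factor HSP110 and HSP90. Enzymatic tissue digestion and warm incubation are also known to induce heat-shock and immediate early genes in single-cell preparations.

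The upstream sequences of Hspa1a and Hspa1b, which chose the cells, are shown because these genes are near-identical copies, and that of Hspb1 for its large difference described below. Sequences are RefSeq's on GRCm38.p6, written 5′ to 3′ for the 250 bases before the annotated start, and capitals mark the letters GAANNTTC, which are 2 inverted units and read the same on both strands. The windows are chr17:34972157-34972406 on the minus strand for Hspa1a, chr17:34959239-34959488 on the minus strand for Hspa1b and chr5:135887669-135887918 on the plus strand for Hspb1, the small heat-shock protein HSP27.
Hspa1a: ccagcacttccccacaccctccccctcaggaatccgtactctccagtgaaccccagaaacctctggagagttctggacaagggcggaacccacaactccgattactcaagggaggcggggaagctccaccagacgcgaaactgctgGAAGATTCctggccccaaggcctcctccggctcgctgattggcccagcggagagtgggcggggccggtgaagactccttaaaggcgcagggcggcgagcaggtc
Hspa1b: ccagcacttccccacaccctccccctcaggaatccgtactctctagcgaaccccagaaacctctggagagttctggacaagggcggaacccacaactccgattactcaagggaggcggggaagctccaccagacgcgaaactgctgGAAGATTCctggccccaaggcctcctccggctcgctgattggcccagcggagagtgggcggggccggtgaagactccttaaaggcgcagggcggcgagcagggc
Hspb1: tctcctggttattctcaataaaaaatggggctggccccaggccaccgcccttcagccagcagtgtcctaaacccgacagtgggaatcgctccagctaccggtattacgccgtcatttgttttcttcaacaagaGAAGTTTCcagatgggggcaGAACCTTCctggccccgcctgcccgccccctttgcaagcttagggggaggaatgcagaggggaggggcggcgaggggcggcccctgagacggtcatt
The Hspa1a and Hspa1b windows differed at 3 of 250 bases (98.8% identical), each with 1 match 104 bases before the start. Hspb1 held 2 matches, 117 and 97 bases before its start. Reads could be assigned to the wrong member of the Hspa1a and Hspa1b pair, so their sum is the safer quantity.

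Short sites are shown for 3 further chaperone genes whose levels are described below. Capitals mark GAANNTTC and GAANNTTCNNGAA, which has 3 units and was searched on both strands. The site of Hsph1 (HSP110) lies at chr5:149636280-149636308 on the minus strand and begins 16 bases after the annotated start. The site of Hspe1 (the mitochondrial HSP10) lies at chr1:55088053-55088082 on the plus strand, 89 bases before the start, and that of Dnaja1 (an HSP40) at chr4:40722333-40722362 on the plus strand, 124 bases before the start.
Hsph1: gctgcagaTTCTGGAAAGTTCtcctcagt
Hspe1: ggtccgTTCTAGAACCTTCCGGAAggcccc
Dnaja1: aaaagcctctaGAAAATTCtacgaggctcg
The Hspe1 site also lies inside the promoter window of Hspd1 (HSP60) on the opposite strand, so that these neighbours share it. Among 32851 RefSeq promoters of the mouse (250 bases before to 50 bases after the start), 7.86% held GAANNTTC and 0.603% held GAANNTTCNNGAA. In the list of cytosolic chaperones and co-chaperones, 8 of the 19 genes with a promoter in the table held the first motif and 3 (Chordc1, Dnajb6 and Hsph1) held the second, while in the immediate early list 1 of 17 (Jun) held the first. A match describes letters in a window and not a bound site.

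The label was checked against marker genes. Every cell on the list carried a Cd4 UMI, so Cd4 does not tell T cells from other listed cells and gives each cell 1 of the UMIs counted next. Over Trbc1, Cd4, Cd2 and Lck, 93.4% of heat-shock high cells carried 2 or more UMIs, against 89.6% of other T cells. CD8 markers reached 2 UMIs in 3 and gamma-delta T cell markers in 8 of the heat-shock high cells. Dendritic markers, among them Cd74, H2-Aa and Ccr7, reached 2 UMIs in 32.8% of heat-shock high and 25.3% of other T cells. The shares were 15.5% and 19.8% for plasma cell, 14.9% and 9.46% for innate lymphoid and 9.37% and 6.23% for macrophage markers outside the rule. These shares were not matched for depth, which was higher in heat-shock high cells. CPM are UMIs summed over the cells of a library and scaled to a common total. In the median library T cell markers stood at 1319 CPM in heat-shock high and 1635 CPM in other T cells, the reverse of the shares. Innate lymphoid markers stood at 142 and 140, and macrophage markers at 125.5 and 124.7 CPM. Dendritic markers stood at 1635 and 1137, and plasma cell markers at 252 and 337 CPM. At least 2 UMIs summed over 26 fibroblast, endothelial, epithelial, squamous and glial genes were found in 142 heat-shock high cells (9.51%) and in 251 other T cells (1.37%). These 142 cells had a median of 7183 UMIs, against 3419 in the heat-shock high cells without such transcripts, a depth gap. No doublet caller was run, and whether these barcodes held more than 1 cell was not tested. Values below are with all cells unless they are said to leave out the cells carrying these transcripts, an alternative chosen after the data had been seen.

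Libraries held 34497509 to 46960005 UMIs over all barcodes. Heat-shock high cells had a median of 3637 UMIs and other T cells 2505, and the median mitochondrial share was 3.24% and 3.23%. No heat-shock high barcode was found among the heat-shock high cells of another library, and 45 barcodes of T cells occurred in 2 or more libraries. Untreated S203A replicate 1 stood apart, since its barcodes held 103769 UMIs of Svs5, a seminal vesicle secretion gene, against 66, 9 and 0 in the libraries of untreated wildtype replicate 1, untreated S203A replicate 2 and each of the other 5.

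The share of T cells that were heat-shock high differed widely between libraries. It was 1.74% and 4.17% in the untreated wildtype libraries (36 and 88 cells) and 27.4% and 11.6% in the untreated S203A libraries (493 and 250 cells). After DSS it was 4.91% and 3.71% in wildtype (148 and 95 cells) and 3.09% and 8.64% in S203A (81 and 303 cells). Both untreated S203A libraries stood above the other 6, and the DSS-treated groups overlapped. Untreated S203A replicate 1 alone gave 493 of the 1494 cells.

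S203A libraries averaged 12.7% ± 10.4 (SD, n = 4) and wildtype libraries 3.63% ± 1.36 (n = 4), a difference of 9.06 percentage points that the exact two-sided permutation test did not separate from the spread (p = 0.114, adjusted over 2 tests 0.229). DSS-treated libraries averaged 5.09% ± 2.49 and untreated ones 11.2% ± 11.6 (n = 4 each), a difference of -6.15 points (exact permutation p = 0.4, adjusted 0.4). With 4 libraries against 4, the smallest p this test can give is 0.0286, and with 2 against 2 it is 0.333, so single group pairs were not tested. Without the cells carrying stromal or epithelial transcripts the differences were 8.81 points between genotypes and -6.11 points between treatments. Without untreated S203A replicate 1 the differences were 4.16 points between genotypes and -0.76 points between treatments. After thinning each cell to 1000 UMIs and asking for at least 2 Hspa1a plus Hspa1b UMIs, the group means were 3.16%, 18.5%, 5.24% and 6.32% in untreated wildtype, untreated S203A, DSS-treated wildtype and DSS-treated S203A.

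Barcodes of other cell types in the same libraries also held these transcripts. Among macrophage barcodes, 63.9% and 52.1% had at least 5 Hspa1a plus Hspa1b UMIs in the untreated S203A libraries, against 15.01% and 30.4% in untreated wildtype, 18.3% and 9.47% in DSS-treated wildtype and 11.4% and 23.7% in DSS-treated S203A. Macrophage shares of both untreated S203A libraries stood above those of the other 6, as the T cell shares did. B cell shares did not follow that order. They ranged from 3.96% in untreated wildtype replicate 1 to 31.0% in DSS-treated S203A replicate 2, with 22.5% and 17.7% in the untreated S203A libraries. The shares were not matched for depth. B cell barcodes outside the cell list had a median of 10257 UMIs in DSS-treated S203A replicate 2 and 2841 and 2613 in untreated S203A. In these barcodes Hspa1a plus Hspa1b stood at 1574 and 953 CPM in untreated S203A, against 238 to 720 CPM in the other 6 libraries. The list held 11 to 26 B cell barcodes a library. There untreated wildtype replicate 2 (2284 CPM) lay above untreated S203A replicate 2 (1476 CPM). Fibroblast barcodes reached 57.6% to 80.7% in the 8 libraries, with 75.2% and 80.7% in untreated S203A and at most 74.9% in the other 6. Outside the list, fibroblast barcodes stood at 4517 and 4506 CPM in untreated S203A, against 1842 to 3851 CPM in the other 6. The part of these differences between libraries in the T cell shares was not tested.

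**Figure D1:**
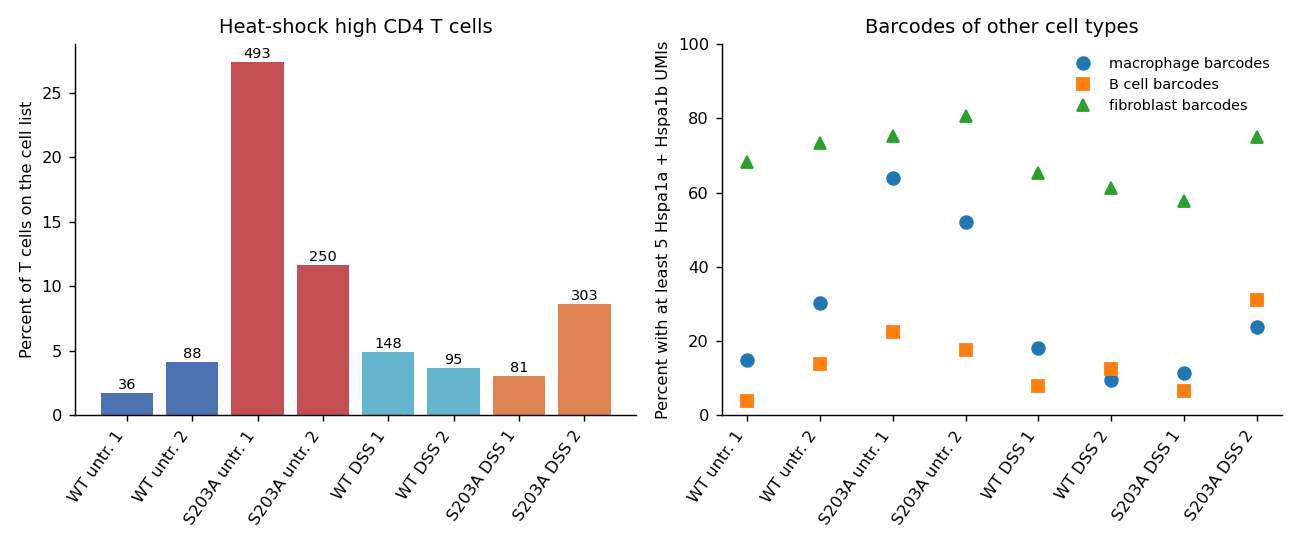
Left, bars give the percent of T cells on the cell list that were heat-shock high in each of the 8 libraries, with the number of cells above each bar. Right, points give the percent of macrophage, B cell and fibroblast barcodes with at least 5 Hspa1a plus Hspa1b UMIs, and both untreated S203A libraries are highest for T cells (27.4% and 11.6%) and for macrophages (63.9% and 52.1%).

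Within the heat-shock high cells, Hspa1a gave 17434 UMIs and Hspa1b 11137, and 1389 of the 1494 cells held both. The median cell held 11 Hspa1a plus Hspa1b UMIs and the highest 313 UMIs. Medians per library lay between 7 in DSS-treated S203A replicate 1 and 20 in untreated S203A replicate 1. Hspa1a stood at 939 to 4112 CPM (UMIs summed over the cells of a library and scaled to a common total) in the heat-shock high cells, with a median library of 1716, and Hspa1b at 840 to 2381 CPM with a median of 1133. In the other T cells the ranges were 26.4 to 123 and 23.3 to 93.3 CPM. At the border of the rule, 234 cells had exactly 5 Hspa1a plus Hspa1b UMIs and 305 had exactly 4, and 74.8% and 81.0% of them carried an Hsph1 UMI. No gap separated the cells on the 2 sides of the border.

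Chaperones of the cytosol were higher in the heat-shock high cells beyond the genes of the rule. The list of cytosolic chaperones and co-chaperones has 25 genes, of which Hsph1 was given with the rule as a marker. Of the other 24, 12 rose and 1 (Dnajb6) fell by edgeR's quasi-likelihood test with the library as a block. Over all 11656 genes tested, 2444 (21.0%) were called, 13.6% higher and 7.33% lower. Without the cells carrying stromal or epithelial transcripts, 13 of 23 rose and 0 fell, where 498 of 10852 genes (4.59%) were called, 2.88% higher and 1.71% lower. The median log2 difference was 0.26 with all cells and 0.35 without those cells (0.29 and 0.38 with Hsph1), beside -0.01 and -0.02 over all genes tested.

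Hsph1, the HSP110 exchange factor that works with HSP70, ranged from 438 to 1733 CPM in the heat-shock high cells (median library 826) and from 217 to 847 CPM in the other T cells (median 378). As a marker given with the rule, its difference from other T cells is a description. It was higher in the heat-shock high cells of 8 of 8 libraries (6.26% of the 11656 genes were), with a log2 difference of 1.01 ± 0.12 (SE). The ranges overlapped across libraries because the other T cells of untreated S203A (652 and 847 CPM) lay above the heat-shock high cells of 4 libraries, 3 of them DSS-treated.

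Dnajb1, the HSP40 that hands clients to HSP70, ranged from 330 to 722 CPM in heat-shock high cells (median 400) and from 138 to 296 CPM in other T cells (median 191). Every heat-shock high value lay above every value of the other T cells. The log2 difference was 1.12 ± 0.14 (SE, edgeR adjusted p = 3.89e-06), and 1.17 without cells carrying stromal or epithelial transcripts. Bag3, a co-chaperone that directs HSP70 clients to autophagy, was also separate, at 59.1 to 149 CPM (median 77.3) against 21.9 to 50.5 CPM (median 26.8), a log2 difference of 1.33 (edgeR adjusted p = 2.00e-05), and 1.03 without those cells.

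The abundant chaperones rose by less. Hsp90aa1, the inducible HSP90, averaged 4147 ± 2277 CPM (SD, n = 8) in heat-shock high and 2536 ± 1422 CPM in other T cells, a log2 difference of 0.62 ± 0.07 (SE, edgeR adjusted p = 4.58e-07). Hspa8, the constitutive HSC70, averaged 3805 ± 1028 against 2681 ± 542 CPM (0.42 ± 0.06), Dnaja1 1776 ± 534 against 1209 ± 218 CPM (0.46 ± 0.09) and Hsp90ab1, the constitutive HSP90, 5409 ± 1780 against 4175 ± 1295 CPM (0.29 ± 0.05). The log2 differences were 0.77, 0.53, 0.64 and 0.35 in the same order without the cells carrying stromal or epithelial transcripts. Each of these 4 was higher in the heat-shock high cells of 8 of 8 libraries and stayed called in all 20 alternative settings (highest adjusted p = 0.0470, for Hsp90ab1). Other called members were Cryab, Dnajb4, Dnaja4, Hspa4l and Cacybp.

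Hspb1 had the largest log2 difference among the listed genes with all cells and depended most on the cells counted. It ranged from 110 to 471 CPM in heat-shock high cells (median 345) and from 3.59 to 126 CPM in other T cells (median 13.1), a log2 difference of 3.52 ± 0.32 (SE, edgeR adjusted p = 4.65e-08). Without cells carrying stromal or epithelial transcripts the difference was 1.14 (adjusted p = 2.17e-06), with means of 75.4 and 33.4 CPM. Among the 25 genes, Cryab was too low to test in that setting.

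**Figure D2:**
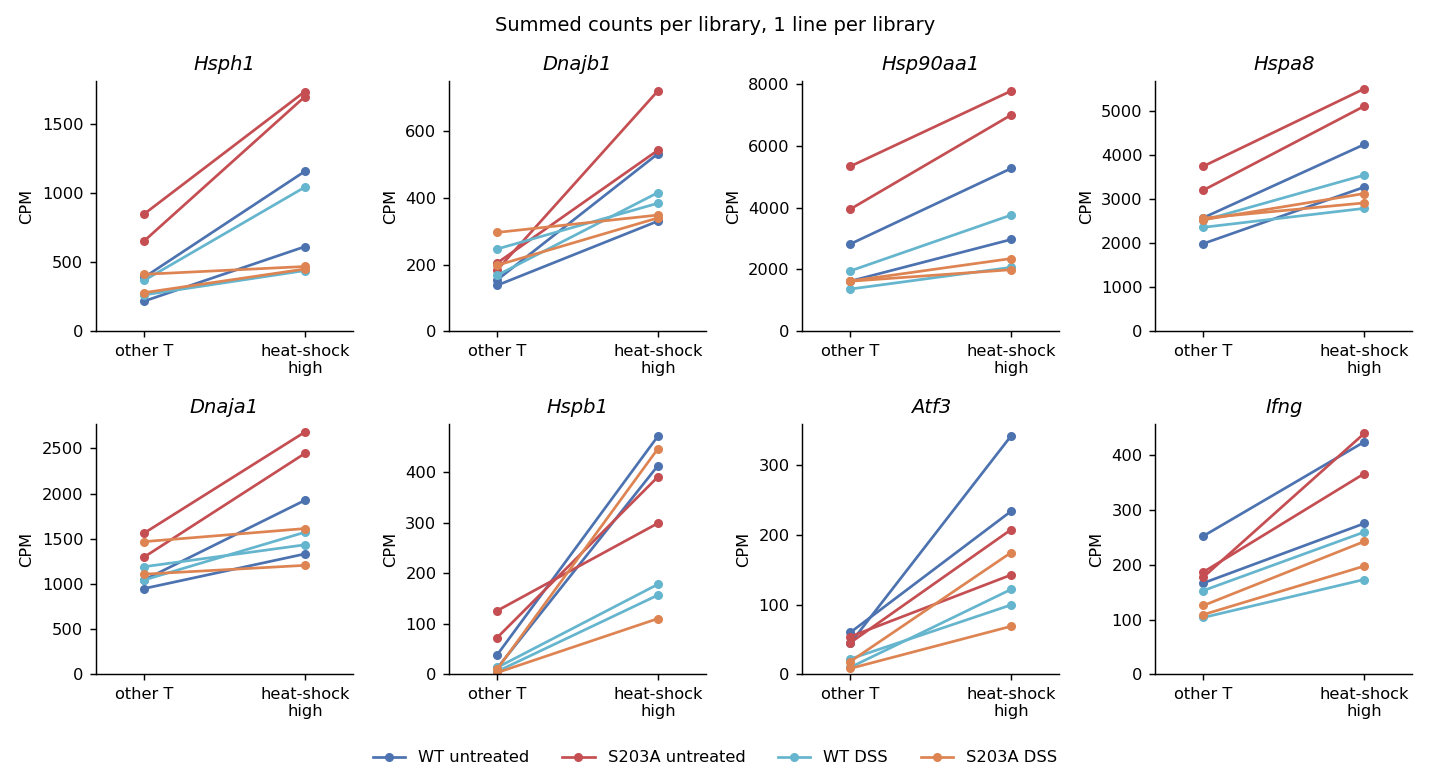
CPM of 8 genes in other T cells (left of each panel) and heat-shock high cells (right), with 1 line per library coloured by group. Lines rise in 8 of 8 libraries for all 8 genes, and the heat-shock high points of the 2 untreated S203A libraries lie highest for Hsph1, Hsp90aa1, Hspa8 and Dnaja1.

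Among mitochondrial chaperones and proteases, 2 of 8 genes rose, where 13.6% of all genes tested did. These were the pair that forms the mitochondrial folding chamber. Hspe1 averaged 1064 ± 571 against 743 ± 414 CPM (log2 difference 0.44, edgeR adjusted p = 2.49e-05, higher in 8 of 8 libraries) and Hspd1 750 ± 495 against 467 ± 288 CPM (0.56, adjusted p = 0.000125, higher in 7 of 8). Both were also called without the cells carrying stromal or epithelial transcripts, with log2 differences of 0.57 and 0.66. Hspa9 (mortalin) and Grpel1, its exchange factor, had log2 differences of 0.04 and -0.10 with adjusted p of 0.834 and 0.512. None of the 7 measured subunits of the CCT chaperonin, which folds actin and tubulin, passed the test by edgeR with all cells; Cct2 stood at 224 ± 47.1 against 238 ± 25.9 CPM and Tcp1 at 161 ± 21.9 against 160 ± 9.01 CPM. Against other T cells matched on UMIs per cell, where 1600 of 10269 genes (15.6%) were called, 11.1% higher and 4.49% lower, 2 subunits were lower, Cct2 with a log2 difference of -0.24 and Cct5 with -0.25.

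Genes of the endoplasmic reticulum showed no common direction. Of 19 genes of its unfolded protein response, 3 rose (Ddit3, Herpud1 and Atf4) and 2 fell (Manf and Dnajb11). These counts are near the shares over all genes tested, 13.6% higher and 7.33% lower. Hspa5, the lumenal HSP70 known as BiP, averaged 1482 ± 235 against 1304 ± 220 CPM, a log2 difference of 0.12 (edgeR adjusted p = 0.161), and passed the test without the cells carrying stromal or epithelial transcripts (0.196, adjusted p = 0.0426). Atf4, a transcription factor of the integrated stress response, averaged 266 ± 43.3 against 194 ± 12.0 CPM (0.36, adjusted p = 0.00105), and Manf, a secreted stress-response protein, 207 ± 33.7 against 252 ± 48.4 CPM (-0.31, adjusted p = 0.0043). Both stayed called without those cells, at 0.25 and -0.31. In the ubiquitin and proteasome list, Ubb, a gene for ubiquitin, rose and averaged 2686 ± 1186 against 2026 ± 818 CPM (0.32, adjusted p = 0.000394), and by 0.40 without those cells. Psmd11, a proteasome subunit, averaged 86.4 ± 9.93 against 95.2 ± 5.52 CPM and was lower by edgeR's test (-0.21, adjusted p = 0.0439, lower in 7 of 8 libraries), and did not pass it without the cells carrying stromal or epithelial transcripts (adjusted p = 0.164).

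Immediate early genes, which respond within minutes to receptor or stress signals, rose as a block. All 19 listed genes were called higher by edgeR, with a median log2 difference of 0.99, where 13.6% of all genes tested were higher. All 19 were also called higher without cells carrying stromal or epithelial transcripts, with a median of 0.64, where 2.88% of all genes were. Atf3, a stress-induced repressor of the AP-1 family, ranged from 68.9 to 341 CPM in heat-shock high cells (median 158) and from 8.52 to 60.1 CPM in other T cells (median 33.4). No library's heat-shock high value overlapped the other T cells, and the log2 difference was 2.36 ± 0.17 (SE, edgeR adjusted p = 7.21e-10), or 1.71 without the cells carrying stromal or epithelial transcripts.

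Jun ranged from 550 to 1509 CPM (median 855) against 213 to 550 CPM (median 403), a log2 difference of 1.17 (edgeR adjusted p = 2.81e-09). Nr4a1, induced by antigen receptor signals, ranged from 139 to 363 CPM (median 210) against 80.6 to 131 CPM (median 96.4), a log2 difference of 1.09 (adjusted p = 3.21e-09). The differences of Jun and Nr4a1 were 0.82 and 1.25 without the cells carrying stromal or epithelial transcripts. The log2 difference of Egr1 went from 2.54 with all cells to 0.81 without those cells. Junb, Jund and Klf6 had smaller differences of 0.30, 0.37 and 0.32, and Klf6 did not pass with at least 10 Hspa1a plus Hspa1b UMIs per cell (0.18, adjusted p = 0.252).

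In the p53 and Gadd45 list 8 of 10 genes rose, and 6 of 10 without the cells carrying stromal or epithelial transcripts. Over all genes tested, 13.6% and 2.88% rose in these settings. Gadd45b, an NF-kB target, averaged 798 ± 227 against 393 ± 137 CPM (log2 difference 0.96, edgeR adjusted p = 4.68e-09), and Cdkn1a, the cell cycle inhibitor p21, 346 ± 110 against 186 ± 38.8 CPM (0.81, adjusted p = 9.10e-07). Of 9 activation genes, Nr4a2, Nfkbia and Cd69 rose and Icos fell with all cells, where 13.6% of all genes rose and 7.33% fell. Nfkbia, the NF-kB inhibitor, averaged 1066 ± 195 against 690 ± 151 CPM (0.56, adjusted p = 6.22e-06), and Icos, a costimulatory receptor, 690 ± 106 against 983 ± 152 CPM (-0.57, adjusted p = 1.75e-06).

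Mean levels of chaperone and immediate early genes were graded with Hspa1a plus Hspa1b, which is described without a test because the bins are cut from the rule. Hsph1 averaged 380 CPM in T cells with 0 Hspa1a plus Hspa1b UMIs, 532 with 1 to 4, 849 with 5 to 9, 1005 with 10 to 19 and 1116 with 20 or more. Dnajb1 ran from 182 through 234, 367 and 438 to 623 CPM over the same bins, and Jun from 370 through 437, 622 and 1010 to 1271 CPM. Hspa8 did not rise at every step, at 2511, 3060, 3770, 3698 and 4131 CPM. Actb, cytoskeletal actin, stood at 5749, 5934, 6333, 6774 and 5744 CPM. The top bin held 425 cells from 8 libraries, of which 249 came from untreated S203A replicate 1; untreated wildtype replicate 1, with 4 cells there, was left out of the means of that bin. The libraries differed in this. In DSS-treated S203A replicate 2 Hsph1 was nearly level from 1 UMI upward, at 457, 466, 475 and 460 CPM, as was Dnajb1, at 330, 356, 317 and 379 CPM. In DSS-treated S203A replicate 1 Hsph1 went from 865 CPM with 10 to 19 to 119 CPM in the 10 cells of the top bin. Hsph1 had an SD of 692 CPM over libraries in that bin, where untreated S203A replicates 1 and 2 and DSS-treated wildtype replicate 1 stood at 1816, 1843 and 1429 CPM.

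**Figure D3:**
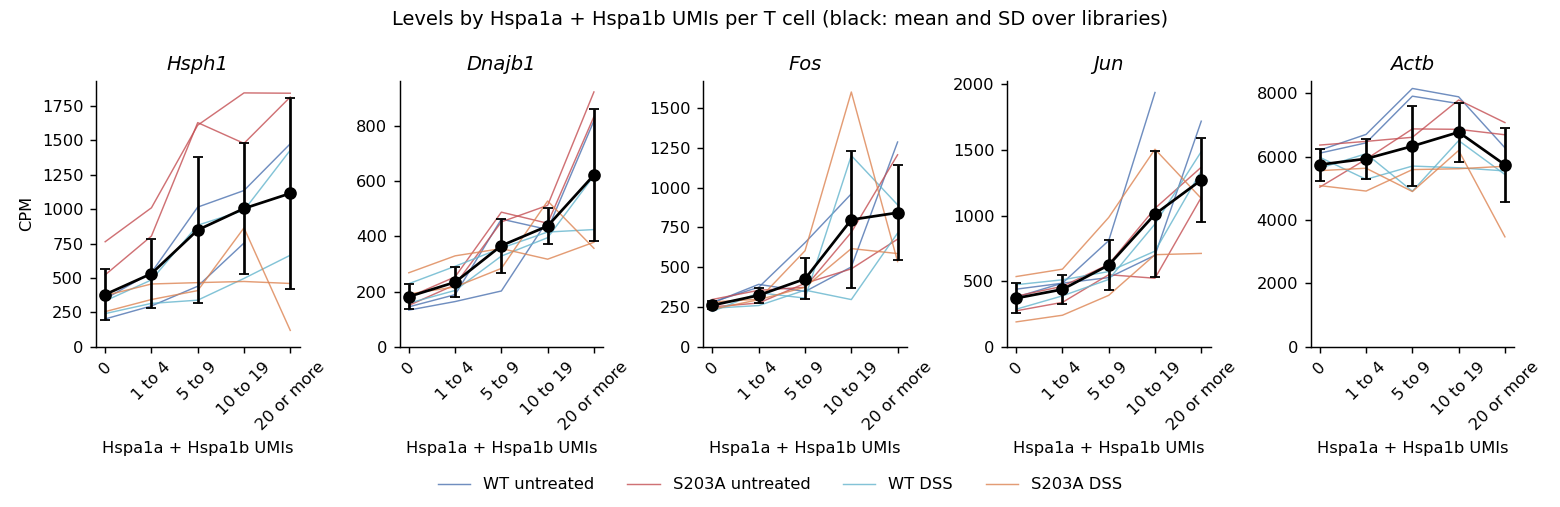
CPM of Hsph1, Dnajb1, Fos, Jun and Actb in T cells binned by Hspa1a plus Hspa1b UMIs per cell, with thin lines for libraries coloured by group and black points and bars for the mean and SD over libraries. Mean Hsph1 goes from 380 to 1116 CPM across the 5 bins, while Actb is 5749 CPM in the first and 5744 CPM in the last.

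With all cells counted, the genes with the largest differences did not belong to T cells. The 10 largest were Lyve1, Flt4, Ccl21a, Afap1l1, Cldn5, Mmrn1, Cdh5, Meis2, Cavin2 and Reln, with log2 differences from 6.80 down to 5.90, and most of them are known from lymphatic or blood endothelium. Lyve1, the hyaluronan receptor of lymphatic vessels, ranged from 17.7 to 242 CPM in heat-shock high cells and from 0 to 4.42 CPM in other T cells, with no overlap. The signal sat in few cells: 27 of 1494 heat-shock high and 7 of 18339 other T cells held 2 or more UMIs over Lyve1, Flt4, Ccl21a and Mmrn1. Squamous keratin transcripts (Krt5, Krt14, Krt6a) reached 2 UMIs in 16 heat-shock high cells, all in DSS libraries, and fibroblast transcripts in 45. All but Afap1l1, Meis2 and Reln of the 10 genes helped define the cells left out in the alternative, in which none of the 10 passed the filter on low counts.

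In that alternative the 10 largest increases were Atf3 (log2 difference 1.71), Tnf (1.68), Mb21d1 (1.37), Nr4a1 (1.25), Nfkbid (1.24), Hsph1 (1.22), Il10ra (1.17), Dnajb1 (1.17), Ifng (1.13) and Ccrl2 (1.13). Atf3 and Nr4a1 belong to the immediate early list, Dnajb1 and Hsph1, the marker given with the rule, to the chaperones and Ifng to the Th1 list. Tnf, the inflammatory cytokine, ranged from 21.6 to 97.6 CPM (median 45.4) against 10.5 to 28.8 CPM (median 18.6) with all cells, and edgeR's adjusted p was 9.60e-08. Of the 498 genes called without the cells carrying stromal or epithelial transcripts, 423 (84.9%) were also called with all cells, and these were 17.3% of the 2444.

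The cytokine Ifng, the product of Th1 cells, was higher in heat-shock high cells on both measures. It ranged from 173 to 440 CPM (median 268) against 104 to 253 CPM (median 160), was higher in 8 of 8 libraries, and had a log2 difference of 0.84 ± 0.08 (SE, edgeR adjusted p = 4.65e-08). After thinning every cell to 1000 UMIs, 21.5% ± 5.89 (SD, n = 8) of heat-shock high and 11.3% ± 3.07 of other T cells held an Ifng UMI, a difference of 10.2 points in 8 of 8 libraries (exact sign-flip permutation p = 0.0078, the smallest 8 libraries allow; adjusted over 6 genes 0.0469). This difference was 12.6 points without the cells carrying stromal or epithelial transcripts (exact permutation, adjusted 0.0469). At 2000 UMIs it was 10.3 points in 7 of 8 libraries (exact permutation p = 0.0156, adjusted 0.0469), with DSS-treated wildtype replicate 1 at -0.39 points. That adjusted value relied on Cd4 (exact permutation p = 0.0078) ranking ahead among the 6 genes. The thinned Cd4 share gives no comparison, so the call at 2000 UMIs does not stand without it. The unthinned shares were 37.7% and 21.1%, and fibroblast barcodes, which should lack Ifng, had 0.1999% thinned and 0.939% unthinned at a median of 4617 UMIs. With any 1 library left out the smallest possible p was 0.0156, and the adjusted p was 0.0938 except without untreated wildtype replicate 1 (0.0469). Tbx21, the Th1 transcription factor, rose as well (log2 difference 0.85, edgeR adjusted p = 0.00053), while Gzmb and Cxcr6 of the same list of 9 fell (-0.56 and -0.52), as did Cxcr3. Over all genes tested with all cells, 13.6% were higher and 7.33% lower. Against matched cells Cxcr6 did not pass (-0.24, adjusted p = 0.169).

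Regulatory T cell genes were lower with all cells, and the list's direction depended on the cells compared. Of 11 listed, 6 fell and 0 rose: Foxp3, Tnfrsf4, Il1rl1, Ikzf2, Tnfrsf18 and Ctla4. Over all genes tested, 7.33% were lower and 13.6% higher. Foxp3, the factor that defines regulatory T cells, ranged from 27.7 to 119 CPM (median 45.7) against 33.7 to 150 CPM (median 81.6), with a log2 difference of -0.67 ± 0.11 (SE, edgeR adjusted p = 0.000124), and it was lower in 7 of 8 libraries. Without cells carrying stromal or epithelial transcripts 3 of the 11 fell (Foxp3, Tnfrsf4 and Ikzf2) and Il10, an anti-inflammatory cytokine, rose (log2 difference 0.51, adjusted p = 0.000599). In that setting 1.71% of all genes were lower and 2.88% higher. Against other T cells matched on UMIs per cell 3 of the 11 fell and 1 rose, with a median log2 difference of -0.11, where 4.49% of all genes were lower and 11.1% higher. A further setting left the cells with stromal or epithelial transcripts out of these matched sets. It no longer matches depth, since the heat-shock high cells then had the lower median UMIs in 7 of 8 libraries (2120 against 2998 in DSS-treated S203A replicate 1), and it called 720 of 9453 genes (7.62%), 3.98% higher and 3.64% lower. In it 2 of the 11 fell and 1 rose, 7 had a positive difference and the median was 0.06, against -0.29 with all cells. Foxp3 itself stayed called lower in all 20 alternative settings. The thinned share of cells with a Foxp3 UMI was 5.20% ± 3.50 against 7.36% ± 3.26 (SD, n = 8), which the exact sign-flip permutation test did not separate (p = 0.117, adjusted 0.176), and the unthinned shares were 16.1% and 16.1%. Fibroblast barcodes had 0.0325% and 0.268%.

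Genes of Th17 cells showed no common direction with all cells. Of 10 listed, 4 rose (Ccl20, Il22, Tmem176b and Tmem176a) and 2 fell (Ccr6 and Il17f), where 13.6% of all genes tested were higher and 7.33% lower. Without cells carrying stromal or epithelial transcripts only Ccl20 and Il22 of the 10 were called, both higher, where 2.88% of all genes were higher and 1.71% lower. Against other T cells matched on UMIs per cell 4 rose and 1 fell, where 11.1% of all genes were higher and 4.49% lower. The median log2 difference was 0.19, against -0.07 with all cells. In the setting that took the cells with stromal or epithelial transcripts out of the matched sets, where depth no longer matched, 5 rose and 0 fell, with a median of 0.28. There 3.98% of all genes were higher and 3.64% lower. Il22, a cytokine that acts on epithelium, averaged 318 ± 164 against 202.7 ± 115 CPM (log2 difference 0.86, edgeR adjusted p = 0.0199), and Ccl20, the ligand of CCR6, 79.9 ± 81.6 against 30.02 ± 29.8 CPM (1.38, adjusted p = 0.000356). The Il22 call was lost by DESeq2 (adjusted p = 0.465), against matched cells (0.157), with no library block (0.26) and without DSS-treated wildtype replicate 1 (0.0582), DSS-treated wildtype replicate 2 (0.0725) or DSS-treated S203A replicate 2 (0.0735). That of Ccl20 was lost by DESeq2 (0.0631) and with no library block (0.189). Il17a stood at 614 ± 326 and 606 ± 435 CPM (0.06, adjusted p = 0.744). It was called higher in 3 of 20 alternative settings: against matched cells (0.45, adjusted p = 0.0297), with Hspa1a plus Hspa1b at 0.2% or more of a cell's UMIs (0.49, adjusted p = 0.000982), and in the setting that took the cells with stromal or epithelial transcripts out of the matched sets (0.68, adjusted p = 0.00052). Thinned shares with an Il17a UMI were 18.5% ± 9.04 and 17.3% ± 9.71 (exact permutation p = 0.234, adjusted 0.281), with 28.8% and 23.5% unthinned and 0.753% and 2.41% in fibroblast barcodes.

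The thinned share with a Cd4 UMI gives no comparison, because every listed cell held one before thinning and the deeper heat-shock high cells (median 3637 against 2505 UMIs) would keep it less often. It was 44.7% ± 4.90 in heat-shock high and 50.01% ± 4.53 in other T cells (SD, n = 8). Ccr7, a lymph node homing receptor, was found in 8.93% ± 4.22 against 11.4% ± 2.50 (exact permutation p = 0.0391, adjusted 0.0781), and the difference without the cells carrying stromal or epithelial transcripts was -2.34 points (adjusted 0.141). Unthinned values were 22.7% and 22.4% for Ccr7. Fibroblast barcodes had thinned shares of 1.201% for Cd4 and 0.687% for Ccr7, and unthinned shares of 4.60% and 2.14%. Thinning left out 18 heat-shock high cells (1, 8, 3 and 6 in untreated wildtype, untreated S203A, DSS-treated wildtype and DSS-treated S203A) and 301 other T cells (109, 22, 96 and 74).

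Further gene groups differed with the cells they were compared with. The antigen presentation genes H2-Aa and Cd74 rose with all cells (log2 differences 0.72 and 0.79, edgeR adjusted p = 0.0164 and 0.0048), but against other T cells matched on UMIs per cell the differences were -0.03 and 0.04. Of the 6 dendritic cell markers, 4 rose with all cells (13.6% of all genes did) and 0 against matched cells (11.1%). Of 12 genes of oxidative and metal stress, 6 rose with all cells, where 13.6% of all genes did. Without the cells carrying stromal or epithelial transcripts 1 (Slc7a11) of 11 rose, where 2.88% of all genes did, and the metallothionein Mt1 went from a log2 difference of 1.42 to 0.14. Of 82 cytosolic ribosomal protein genes 10 were lower and 0 higher with all cells, where 7.33% of all genes were lower, with a median of -0.12. Against matched cells 19 of 81 were lower (4.49% of all genes), and 1 of 82 without the cells carrying stromal or epithelial transcripts (1.71% of all genes). Of 84 nuclear genes of oxidative phosphorylation 3 were higher and 4 lower with all cells, 2 and 20 of 82 against matched cells, and 0 and 0 of 81 without the cells carrying stromal or epithelial transcripts. The seminal vesicle list had 3 measurable genes and none passed the test; Svs5 stood at 16.1 and 15.4 CPM.

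**Figure D4:**
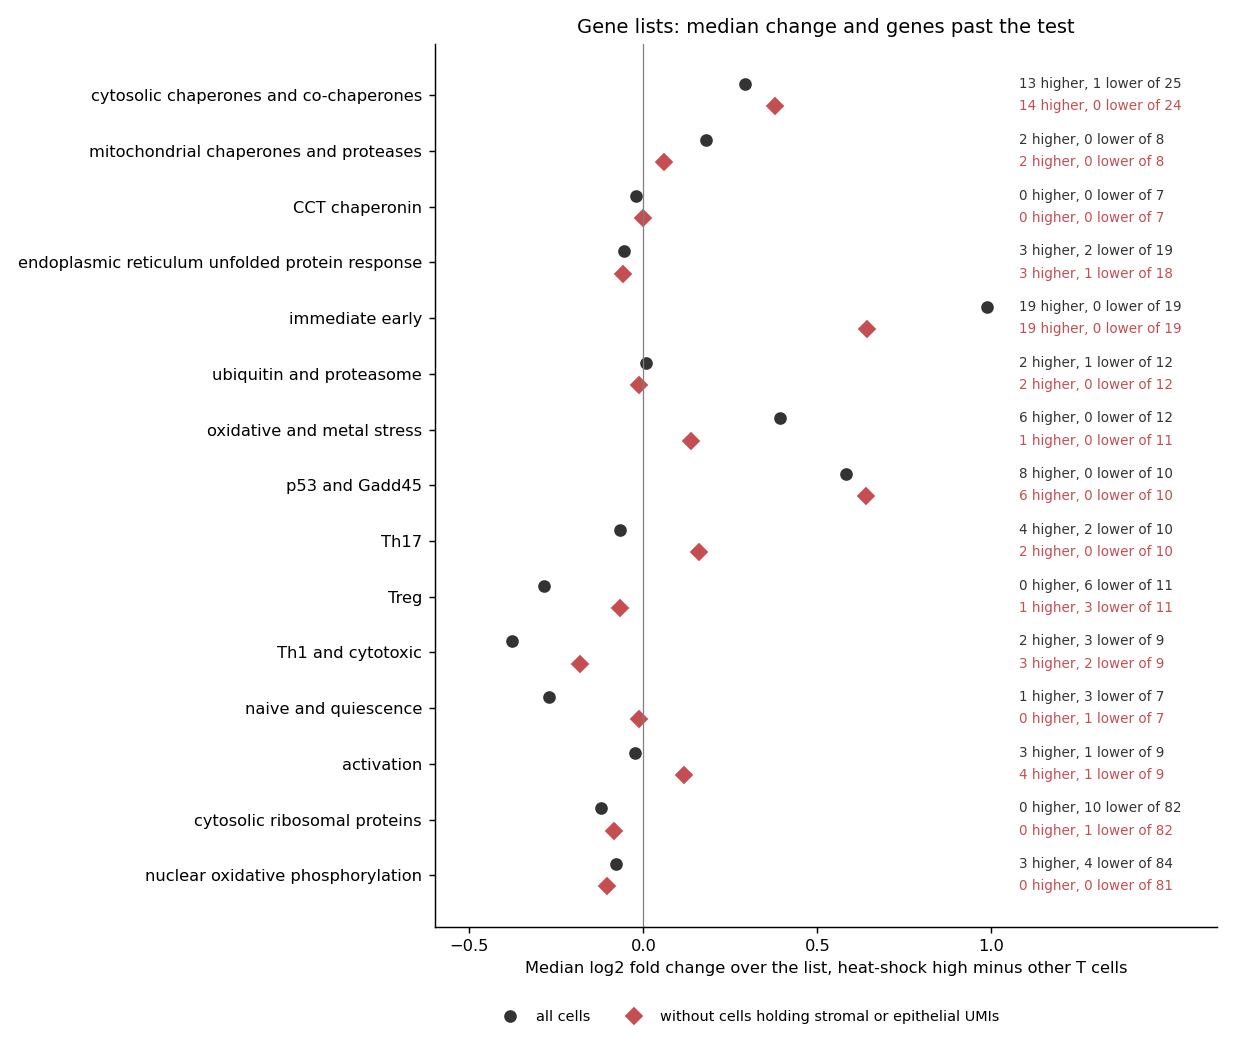
Median log2 difference between heat-shock high and other T cells for 15 gene lists, with all cells (black circles) and without cells holding stromal or epithelial UMIs (red diamonds). Text at the right counts genes called higher or lower by edgeR among those tested, and the medians are 0.99 and 0.64 for immediate early genes and 0.29 and 0.38 for cytosolic chaperones, of which 13 of 25 and 14 of 24 genes are called higher, the marker Hsph1 among them.

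Fewer and smaller decreases were found. The 10 largest with all cells were Gm16062, Hyls1, Gm2245, Ccdc30, Prmt6, 2310031A07Rik, Cd27, Gm19557, Ermn and Gm15655, with log2 differences between -1.0006 and -0.73. Most of these calls depended on the setting. Of 20 alternatives, Gm19557 was called in 6, Ccdc30 in 7, Prmt6 in 8, Hyls1 and Gm2245 in 12, 2310031A07Rik in 13, Gm15655 in 17, Cd27 in 19 and Gm16062 and Ermn in 20. Cd27, a costimulatory TNF receptor, averaged 101 ± 32.9 against 170 ± 44.2 CPM (-0.75, edgeR adjusted p = 8.06e-06) and was lower in 8 of 8 libraries. Without the cells carrying stromal or epithelial transcripts the 10 largest were Gm16062, Snx13, Ptrhd1, S1pr1, Unc50, Nubp2, Prpf18, Vrk3, Cd27 and Stk4 (-0.88 to -0.52). S1pr1, the receptor by which T cells leave tissue, was at 58.6 and 89.8 CPM there (-0.61, adjusted p = 0.000145), and Stk4, the kinase MST1, at 316 and 444 CPM (-0.52, adjusted p = 2.77e-06). S1pr1 was called with all cells too, and in 10 of 20 alternatives. Of the 4 T cell markers outside the rule, Cd2, Trbc1 and Cd4 were lower with all cells, where 7.33% of all genes were. Only Cd2 was lower without the cells carrying stromal or epithelial transcripts, where 1.71% of all genes were. Every listed cell held Cd4 and heat-shock high cells were deeper, so the lower Cd4 level gives no comparison.

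The difference between heat-shock high and other T cells itself varied between the 4 groups for 94 of 11656 genes (0.806%, edgeR's quasi-likelihood test of the interaction) and for 47 of 10852 (0.433%) without the cells carrying stromal or epithelial transcripts. Chaperones were among them. The log2 ratio of the group's mean CPM, with 1 CPM added, was for Hsph1 1.54 in untreated wildtype, 1.19 in untreated S203A, 1.23 in DSS-treated wildtype and 0.41 in DSS-treated S203A (interaction adjusted p = 0.0118). For Dnajb1 the ratios were 1.56, 1.70, 0.94 and 0.48 (adjusted p = 0.00611) and for Bag3 2.27, 1.93, 0.88 and 0.62 (adjusted p = 0.0364). All 3 stayed called without the cells carrying stromal or epithelial transcripts, at adjusted p of 0.00124, 0.000975 and 0.00906, and all 3 calls were lost with DESeq2 (0.0756, 0.0578 and 0.393). That of Bag3 was also lost without untreated wildtype replicate 1 (0.134) or untreated S203A replicate 1 (0.0519). The ratio was smallest in DSS-treated S203A cells for each of these 3 and largest there for Hspb1 (4.05, 1.78, 3.96 and 5.11 in the same order, adjusted p = 1.229e-06), whose adjusted p was 1.0 without the cells carrying stromal or epithelial transcripts. For the rule gene Hspa1a, heat-shock high cells stood at 1542 and 1619, 4112 and 1921, 2071 and 1813, and 1479 and 939 CPM in the same order. Other T cells stood at 26.4 and 48.8, 123 and 95.1, 37.3 and 66.1, and 57.5 and 79.7 CPM. The contrast set by the rule thus differed between groups, and its part in these interactions was not tested.

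Few genes differed between heat-shock high cells of DSS-treated and untreated wildtype mice. By edgeR 3 of 7302 genes passed (0.0411%): Cybb and Lyz2 rose (0.0274%) and Crip1 fell (0.0137%). Without the cells carrying stromal or epithelial transcripts 7 of 6141 passed (0.114%; 0.0814% higher and 0.0326% lower), these 3 included. Lyz2, the lysozyme of macrophages, stood at 44.1 and 32.8 CPM in untreated and 257 and 279 CPM in DSS-treated wildtype libraries, a log2 fold change of 2.91 ± 0.26 (SE), with an adjusted p of 0.00139. Cybb, the phagocyte oxidase subunit, stood at 5.51 and 2.05 against 74.9 and 70.3 CPM (4.58, adjusted p = 0.0289). Neither gene overlapped between the groups, which with 2 libraries against 2 has an exact permutation p no lower than 0.333. The 6 macrophage markers outside the rule, none at 0 in all libraries, summed to 57.4 and 71.6 CPM in the untreated and 313 and 425 CPM in the DSS-treated cells, and their part in the result was not tested.

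Crip1, a LIM-domain protein, stood at 1928 and 2269 CPM in untreated and 596 and 806 CPM in DSS-treated wildtype heat-shock high cells (log2 fold change -1.54, edgeR adjusted p = 0.0194), and other T cells had a log2 fold change of -1.41. No chaperone list gene was called: Hsph1 stood at 611 and 1156 CPM untreated and 1041 and 438 CPM after DSS (-0.23, adjusted p = 0.897), with overlapping groups. DESeq2 called 35 genes. Leaving out untreated wildtype replicate 2 (adjusted p = 0.0902) or DSS-treated wildtype replicate 1 (0.0837) ended the Crip1 call, as did fitting the 4 wildtype libraries alone (0.0519), and the Cybb call was lost without either DSS-treated wildtype replicate (0.0772 and 0.0545) or untreated wildtype replicate 2 (0.3). With at least 10 Hspa1a plus Hspa1b UMIs per cell, Cybb and Lyz2 no longer passed (adjusted p = 0.493 and 0.482).

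Between untreated S203A and untreated wildtype mice no gene passed the test in the heat-shock high cells. None of 7302 passed by edgeR (0 genes, 0.0%, also without the cells carrying stromal or epithelial transcripts); 493 had an unadjusted p under 0.05. DESeq2 called 7. Hsph1 stood at 611 and 1156 CPM in wildtype and 1696 and 1733 CPM in S203A, a log2 fold change of 1.01 ± 0.35 (SE), with an edgeR adjusted p of 0.677, and Hspd1 at 567 and 742 against 1358 and 1615 CPM (1.25, adjusted p = 0.66). The groups did not overlap for either gene, but with 2 libraries against 2 this has an exact permutation p no lower than 0.333. Neither difference passed edgeR's test. The other T cells of the same libraries had log2 fold changes of 1.31 for Hsph1 and 1.28 for Hspd1 (edgeR adjusted p = 0.993 for each). Prss23, Des and Mylk had the smallest p: Prss23, a serine protease, stood at 82.6 and 71.7 CPM in wildtype and 13.2 and 8.85 CPM in S203A (-2.64, adjusted p = 0.0856). None of these genes passed the filter on low counts without the cells carrying stromal or epithelial transcripts. Such cells were 27.8% and 12.5% of the heat-shock high cells in untreated wildtype, and 6.90% and 4.80% in untreated S203A. Their part in these differences was not tested.

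After DSS, S203A and wildtype heat-shock high cells differed in 2 of 7302 genes (0.0274%) by edgeR, 1 higher (0.0137%) and 1 lower (0.0137%), and without the cells carrying stromal or epithelial transcripts in 2 of 6141 (0.0326%), Lyz2 and Gpnmb, both lower (0.0326%). Lyz2 fell, from 257 and 279 CPM in wildtype to 71.0 and 58.4 CPM in S203A (log2 fold change -2.15, adjusted p = 0.00376), where the summed macrophage markers were 313 and 425 CPM in wildtype and 106 and 127 CPM in S203A. Ppbp, a platelet chemokine, rose from 28.4 and 21.6 to 133 and 158 CPM (2.455, adjusted p = 0.0344). Ppbp did not pass the filter on low counts without the cells carrying stromal or epithelial transcripts, nor in other T cells, so it was not tested there. The Ppbp call was lost without any 1 of the 4 DSS libraries, and the Lyz2 change was 0.13 when at least 10 Hspa1a plus Hspa1b UMIs were asked for. Fitting the 4 DSS libraries alone called 0 genes, so neither the Lyz2 nor the Ppbp call held there. Hsph1 stood at 1041 and 438 CPM in wildtype and 450 and 468 CPM in S203A (-0.76, adjusted p = 0.9998), with overlap.

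Between DSS-treated and untreated S203A mice more genes passed than in the other 3 comparisons of heat-shock high cells, 89 of 7302 genes (1.22%), with 54 higher (0.74%) and 35 lower (0.479%). The other T cells also had the most calls there, 361 of 11220 genes, against 15, 0 and 0 in the other 3 comparisons. In the heat-shock high cells some abundant chaperones fell, and most of these calls needed all 4 S203A libraries. In the cytosolic list 6 of 24 were called lower and 0 higher (Dnaja1, Dnaja4, Hsp90aa1, Hsp90ab1, Hspa8 and Hsph1), with a median log2 fold change of -0.56 beside 0.02 over all genes, and Hspd1 and Hspe1 fell among 7 mitochondrial genes, whose median was 0.11. Without the cells carrying stromal or epithelial transcripts, 88 of 6141 genes were called (1.43%; 34 or 0.554% higher and 54 or 0.879% lower; 35 shared with the 89), and 7 of the chaperones were lower, Hspb1 among them.

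Hsph1 stood at 1696 and 1733 CPM in untreated and 450 and 468 CPM in DSS-treated S203A heat-shock high cells, a log2 fold change of -1.99 ± 0.36 (SE), with an edgeR adjusted p of 0.02245. Hspd1 stood at 1358 and 1615 against 370 and 377 CPM (-2.08, adjusted p = 0.0322), and Hsp90aa1 at 6997 and 7776 against 2351 and 1991 CPM (-1.86, adjusted p = 0.0112). None of these groups overlapped, which with 2 libraries against 2 has an exact permutation p no lower than 0.333. The other T cells of the same libraries had log2 fold changes of -1.21 for Hsph1 (adjusted p = 0.0519), -1.77 for Hspd1 (0.0285) and -1.61 for Hsp90aa1 (0.0285). Hspa1a itself stood at 4112 and 1921 against 1479 and 939 CPM, given as a value of the rule.

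**Figure D5:**
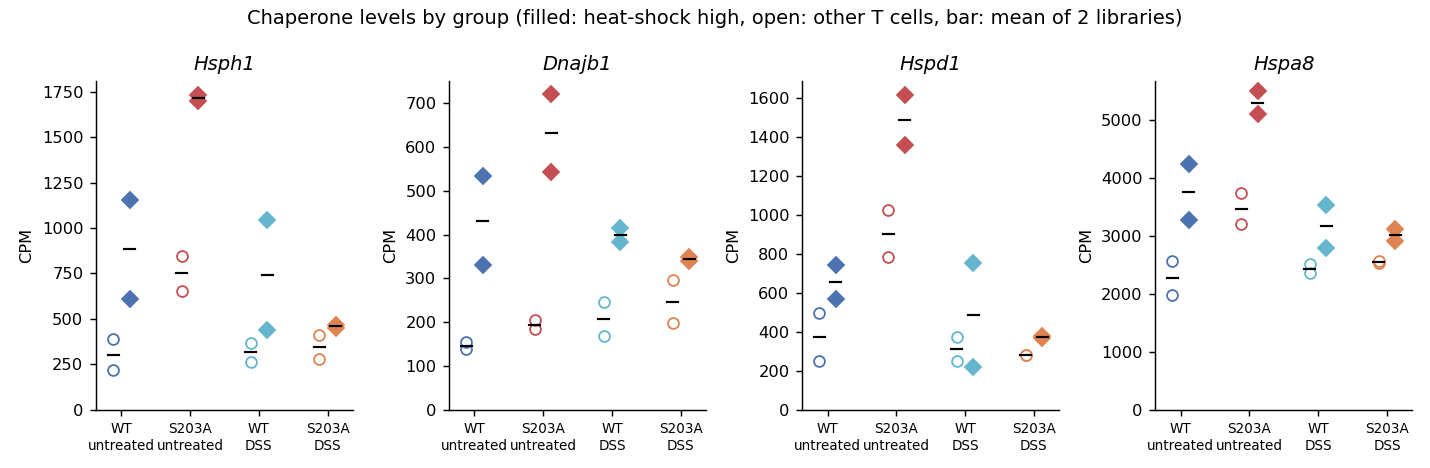
CPM of Hsph1, Dnajb1, Hspd1 and Hspa8 by group, with filled diamonds for heat-shock high cells, open circles for other T cells, 1 point per library and bars at the mean of 2 libraries. The untreated S203A heat-shock high cells are highest in all 4 panels (Hsph1 at 1696 and 1733 CPM), and the DSS-treated S203A ones lie at 450 and 468 CPM for Hsph1.

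The calls of Hsph1 and Hspd1 rested on all 4 S203A libraries. Without any 1 of them the fold change of Hsph1 stayed between -1.98 and -2.03 and its adjusted p lay between 0.0704 and 0.139, and the adjusted p of Hspd1 between 0.102 and 0.166. Of the cytosolic list 0 genes were called without untreated S203A replicate 1, the library that stood apart, 1 (Hsp90aa1) without untreated S203A replicate 2, 2 (Dnaja4 and Hspb1) without DSS-treated S203A replicate 1 and 0 without DSS-treated S203A replicate 2. The median log2 fold change of the list stayed between -0.63 and -0.47 in these 4 settings. The count of 89 was 18 without untreated S203A replicate 1, with 2 genes lower in place of 35, and 45 without untreated S203A replicate 2, with 14 lower. Without DSS-treated S203A replicates 1 and 2 in turn it was 61 each time, with 15 and 5 lower.

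The largest increases after DSS in S203A mice were squamous keratin genes and Wfdc2. Krt14 stood at 0 CPM in both untreated libraries and at 2014 and 552 CPM after DSS, and Krt5, Krt6a, Wfdc2 and Krt16 were also at 0 before and between 74.4 and 878 CPM after. Over Krt5, Krt14 and Krt6a, 9 of the 384 DSS-treated S203A heat-shock high cells carried 2 or more UMIs. Which cells held Wfdc2 and Krt16 was not counted. None of the 5 genes passed the filter once the cells carrying stromal or epithelial transcripts were left out. Krt5, Krt14 and Krt6a helped define the cells left out, so their loss there was set by that choice. At 0 before, all 5 entered the test only through DSS-treated libraries. Jaml, a T cell costimulatory adhesion molecule, fell from 40.8 and 38.9 to 2.96 and 9.58 CPM (log2 fold change -2.36, edgeR adjusted p = 0.0148), and H2-Q10 fell by 1.98 on the log2 scale. The other T cells had log2 fold changes of -2.23 for Jaml (adjusted p = 0.0163) and -1.07 for H2-Q10 (0.0934). Jaml was called in 8 of 13 alternative settings (highest adjusted p = 0.222) and H2-Q10 in 7 of 13 (0.2215). Without untreated S203A replicate 1 neither passed, at adjusted p of 0.148 and 0.0781.

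Of 7 naive and quiescence genes, Klf2, Tcf7 and Lef1 fell between untreated and DSS-treated S203A heat-shock high cells, and S1pr1 as well without the cells carrying stromal or epithelial transcripts. Over all genes tested, 0.479% and 0.879% fell in these settings. Klf2, a factor that keeps T cells circulating, stood at 321 and 284 CPM in untreated and 107 and 116 CPM in DSS-treated S203A heat-shock high cells (-1.52, edgeR adjusted p = 0.0044), with a fold change of -1.13 without those cells (adjusted p = 0.0275). It was called in 12 of 13 alternatives and not without untreated S203A replicate 1 (0.0627). Tcf7 was called in 9 and Lef1 in 5 of 13. Foxp3 stood at 27.7 and 34.5 against 47.3 and 119 CPM (1.502, adjusted p = 0.059), and passed the test without the cells carrying stromal or epithelial transcripts (1.66, adjusted p = 0.00356). Without DSS-treated S203A replicate 2 its fold change was 0.52. Tnfrsf9, the costimulatory receptor 4-1BB, rose from 69.4 and 69.0 to 183 and 285 CPM (1.71, adjusted p = 0.0102), and by 1.86 without those cells (adjusted p = 0.000985), and was called in 9 of 13 alternatives. Other T cells had log2 fold changes of 1.48 for Foxp3, 1.17 for Tnfrsf9 and -0.54 for Klf2. The interaction test over all 4 groups, which does not single out this response to DSS, gave edgeR adjusted p of 1 for Foxp3, 0.918 for Tnfrsf9 and 0.00449 for Klf2, the last lost without the cells carrying stromal or epithelial transcripts (0.273).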

How the data were processed

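Per the labels, CD4 cells were enriched from the colonic lamina propria and loaded for droplet libraries. For each library the authors deposited UMI counts per gene and barcode, with a list of gene symbols and a list of kept cells. The submitters' processing notes name Cell Ranger 3.1.0, Seurat 4.0.1 and mm10, without roles. The values were whole numbers and entered the fits unchanged, as counts. Cells were assigned to libraries by barcode and library name in the deposited list, and groups came from the sample titles.

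Counts were summed per library over heat-shock high and over other T cells, 16 sums with at least 10 cells each, and fitted in edgeR 4.0.16 (quasi-likelihood, TMM scaling, filterByExpr, R 4.3.3) with the library as a block, or over the heat-shock high cells alone for group comparisons, with Benjamini-Hochberg adjustment at 0.05 over all genes tested. The genotype and treatment comparisons share control libraries. DESeq2 1.42.0 was an alternative. Single values were tested by exact permutation or sign-flip tests (scipy 1.17.1). The fits were tested on simulated data. The heat-shock high cells and all gene lists were chosen with earlier results of these data known. Genes were named by a rule: the 10 largest changes each way among called genes of at least 5 CPM with 1 direction in every library, the 4 most abundant genes of each list, up to 5 called genes each way per group comparison (or the 3 with the smallest p where none was called), and Hsph1. Some results are not reported here. Other named genes, such as Hspb1, Bag3, Egr1, Foxp3, Tbx21, Il10, Ccl20, Manf, H2-Aa and Cd74, and those listed only as called members of a list, were chosen after their values were seen. Cct6a was not analysed here.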

Additional observations from a re-analysis of the deposited data

Results flagged for a closer look

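The difference between heat-shock high and other T cells varied between the 4 groups for 11 named genes by edgeR's interaction test. Hspb1 had an interaction adjusted p of 1.229e-06, with log2 ratios of 4.05 in untreated wildtype, 1.78 in untreated S203A, 3.96 in DSS-treated wildtype and 5.11 in DSS-treated S203A, and an adjusted p of 1.0 without cells carrying stromal or epithelial transcripts. Dnajb1 (0.006112), Hsph1 (0.01178) and Bag3 (0.03639) are described above, and Dnaja1 had 0.02092, with log2 ratios of 0.71, 0.84, 0.43 and 0.13 in the same order, a call lost without cells carrying stromal or epithelial transcripts (0.095), without untreated S203A replicate 1 (0.24) and by DESeq2 (0.0508). Lyz2 had 0.0007506, with ratios of -1.21, 0.28, 1.54 and -0.12. The endothelial genes Ccl21a and Cavin2 had 0.0001097 and 0.01748, the latter lost by DESeq2 (0.1725). Klf2 had 0.004492, with ratios of 0.74, 0.59, 0.66 and -0.39, Rpl13 had 0.0395 and Txn1 0.04476, and of these 3 none was called without the cells carrying stromal or epithelial transcripts.

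Outside the deposited cell list, 1999 of 34143 T cell barcodes that passed the same gate (5.85%) had at least 5 Hspa1a plus Hspa1b UMIs.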

How the results depend on the processing

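Both share differences kept their sign in all alternatives. With 1 library left out they ran from -9.31 to -0.76 points for DSS and from 4.16 to 12.3 points for S203A. Neither passed the threshold (exact permutation test, 0.114 to 0.8 adjusted with 1 library left out), but the number of libraries fixed this. Without DSS-treated S203A replicate 1 all S203A libraries lay above all wildtype ones, and the exact permutation p was still 0.0571. The count of 2444 genes was 1600 against matched cells, 1623 without cells of very high UMIs, 498 without cells carrying stromal or epithelial transcripts and 720 with those cells taken out of the matched sets, which then no longer match in depth; it was 1899 with no replicate block (no library term), 3444 without a filter, 2049 by DESeq2 and 2019 to 2366 with 1 library left out. The interaction count of 94 was 46 by DESeq2, 215 without a filter, 163 at 10 UMIs or more, 47 without cells carrying stromal or epithelial transcripts and 72 to 254 with 1 library left out. In wildtype, the count of 3 for DSS was 35 by DESeq2, 219 without a filter, 5 with only the 4 libraries compared, 7 without cells carrying stromal or epithelial transcripts and 3 to 21 with 1 library left out. For S203A in untreated mice the count of 0 was 7, 196 and 15 by DESeq2, without a filter and with the 4 libraries, and 0 to 8 with 1 left out. After DSS the count of 2 was 4, 59 and 0 in the same settings and 1 to 8. For DSS in S203A the count of 89 was 473 without a filter, 191 with the 4 libraries and 18 to 130. No paired analysis was made between groups because the titles share no replicate numbers. Within each treatment the titles carry neighbouring numbers across genotypes, but no label says that these are pairs.

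Among thinned shares, Foxp3 differed by -2.29 and Ccr7 by -3.89 points at 10 Hspa1a plus Hspa1b UMIs or more, both past the threshold there; that of Cd4 (-9.07 points at 2000 UMIs and -7.08 at 10 or more) gives no comparison, since every listed cell held Cd4 before thinning; Il17a turned to -0.23 at 10 or more and Ccr7 to 0.31 without thinning. With 1 library left out the ranges were 9.38 to 10.7 for Ifng and -3.03 to -1.47 for Foxp3. Single genes turned their direction as follows (log2 difference): with at least 0.2% of UMIs, Txn1 -0.29, Prdx1 -0.25, H2-Aa -0.55, Cd74 -0.61, Slc7a11 -0.37 and Itgax -1.13; with matching, Il7r 0.030 and H2-Aa -0.028; without cells carrying stromal or epithelial transcripts, Dcn -0.86, and with those cells taken out of the matched sets, Txn1 -0.25, Mt1 -0.024, Ctla4 0.10, Il7r 0.23, Tnfaip3 0.41 and Il17f 0.13; and Lyz2 in S203A against wildtype after DSS 0.13 at 10 UMIs or more. Dcn helped define the cells left out, so its turn there followed from that choice. The causes of the other turns were not tested. Group comparisons rest on 2 libraries a group, with as few as 36 cells in one.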
